A study of Mus musculus with 7 samples.

Results

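Wnt5b and 9 further genes of the Wnt pathway were followed across the cell populations of the mouse ventricular-subventricular zone (V-SVZ), the niche along the lateral ventricles in which neural stem cells (NSCs) give rise to neurons after birth. The 10 genes were Wnt5b, Wnt5a, Wnt7a, Wnt7b, Fzd1, Fzd2, Fzd3, Sfrp1, Dkk3 and Axin2, out of 32285 gene entries in the count matrices. They were selected on measured values of these data, namely the higher UMI counts of Wnt5b in NSCs of mice lacking Prdm16. The comparison of cKO with Control NSCs therefore served to choose them, and its values are given as a description with no test. Comparisons of cKO with Control libraries in the other populations were tested across libraries.

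Wnt proteins are secreted, lipid-modified ligands that bind Frizzled receptors. In one branch the receptors, together with Lrp co-receptors, keep beta-catenin from being degraded, and beta-catenin then switches on target genes with TCF and LEF factors. In other branches Frizzled signals act on cell polarity and the cytoskeleton without beta-catenin. Secreted inhibitors limit both, and in the V-SVZ Wnt signals are known to influence the proliferation and the fate of stem cells and their progeny.

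Single cells of the lateral ventricular wall of mice aged 31 to 33 days were sequenced with the 10x Genomics 3′ assay, in which unique molecular identifiers (UMIs) count each captured transcript once. The 3 Control libraries carried the genotype Prdmflox/flox, as the labels spell it. The 3 Prdm16 cKO libraries were hGFAP-Cre+/-; Prdm16flox/flox, and 1 Prdm16-Vcam1 DKO library was hGFAP-Cre+/-; Prdm16flox/flox; Vcam1flox/flox. The hGFAP promoter drives Cre in radial glia, so that NSCs, astrocytes, ependymal cells and the neurons born from them can all carry the deletion. Each library pooled 2 to 3 mice of both sexes, and the DKO group was a single library, so its values carry no replicate error. The libraries held 45758003 to 141353017 UMIs. After removal of barcodes with fewer than 500 genes, more than 7000 genes or more than 10% mitochondrial counts, 43346 cells remained, with a median of 4959.5 to 8317.5 UMIs per cell. Fewer barcodes passed in cKO libraries 2 and 3 (49.8% and 47.2%) than in the other 5 (70.2% to 74.7%). Any pair of libraries shared 2 to 70 barcodes, and 340 barcodes occurred in more than 1 library. Scrublet marked 2.41% of the kept cells as doublets, which stayed in.

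The NSC-like population (5568 cells) carried all 5 of its markers, Gfap, Thbs4, Hes5, Fabp7 and S100a6, and also passed the detection limits for all 10 markers of the astrocyte list. In NSC-like cells Prm1, the protamine gene, stood at 0, 0.215 and 0 CPM (UMIs scaled to a common total of all UMIs in that population and library) in Control libraries 1 to 3, at 152.7, 321.0 and 431.0 in cKO libraries 1 to 3 and at 163.4 in the DKO library. Prm1 thus separated the libraries by the Cre in their labels. Prdm16 stood at 74.3, 62.5 and 68.2 CPM in the Control libraries, at 54.9, 50.7 and 46.0 in the cKO libraries and at 55.4 in the DKO library. Vcam1 stood at 154.7, 129.4 and 108.8, at 151.2, 183.4 and 174.5, and at 88.8 CPM in the same order. The Prdm16 values of the groups did not overlap, but tags at the 3′ end of a transcript do not check a deletion of internal exons. Of 18 clusters, 13 were named from markers, and 12 populations were compared, among them 1 compared as cluster 8 (2181 cells), whose leading genes Ung, Cdc6, Mcm2, Dll3 and Gsx1 include DNA replication genes. TAP-like cells are transit amplifying precursors, OPC-like cells oligodendrocyte precursor cells, and mural-like cells the pericytes and smooth muscle cells of vessels.

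In GRCm38, Wnt5b lies on the minus strand of chromosome 6 (chr6:119432531-119544347), as does Wnt7a (chr6:91363981-91411363). Wnt5a (chr14:28504750-28527448, plus strand) and Fzd3 (chr14:65192449-65262463, minus strand) share chromosome 14. Fzd2 (chr11:102604396-102608058) and Axin2 (chr11:108920349-108950783) lie on the plus strand of chromosome 11. Wnt7b (chr15:85535437-85582473), Fzd1 (chr5:4753839-4758035) and Dkk3 (chr7:112116017-112159057) are on the minus strand, and Sfrp1 (chr8:23411502-23449632) is on the plus strand.

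RefSeq gives 3 start sites for Wnt5b, and they are shown because Wnt5b led the choice of genes and reads from the 3′ end do not show which start was used. Each window runs from 250 bases before to 50 bases after a start, 5′ to 3′ on the minus strand of GRCm38.p6. Capitals mark a match to CTTTGAT or CTTTGAA, letters of the kind bound by TCF and LEF factors, searched on both strands. The first window lies at chr6:119449337-119449636, the second at chr6:119467162-119467461 and the third at chr6:119544298-119544597.
Wnt5b start 1: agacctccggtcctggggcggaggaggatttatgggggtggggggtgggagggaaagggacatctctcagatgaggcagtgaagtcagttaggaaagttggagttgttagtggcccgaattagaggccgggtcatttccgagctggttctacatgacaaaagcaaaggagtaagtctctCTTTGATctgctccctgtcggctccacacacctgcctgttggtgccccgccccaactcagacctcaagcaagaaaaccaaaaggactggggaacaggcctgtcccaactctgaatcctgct
Wnt5b start 2: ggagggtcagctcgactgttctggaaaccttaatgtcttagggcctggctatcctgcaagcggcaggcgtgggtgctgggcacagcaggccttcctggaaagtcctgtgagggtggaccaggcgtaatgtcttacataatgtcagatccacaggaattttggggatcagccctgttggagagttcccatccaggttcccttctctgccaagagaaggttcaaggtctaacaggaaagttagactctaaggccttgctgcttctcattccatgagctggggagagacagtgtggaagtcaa
Wnt5b start 3: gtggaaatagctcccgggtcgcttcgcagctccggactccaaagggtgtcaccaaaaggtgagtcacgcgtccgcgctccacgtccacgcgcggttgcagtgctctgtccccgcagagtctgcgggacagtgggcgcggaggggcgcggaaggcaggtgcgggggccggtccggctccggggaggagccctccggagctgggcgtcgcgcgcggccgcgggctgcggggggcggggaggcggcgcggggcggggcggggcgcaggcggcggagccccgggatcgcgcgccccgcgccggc
The first window held 1 match and the other windows held 0, while 8.65% of 32817 RefSeq promoter windows of this length held at least 1. The GC content was 55%, 53% and 78% in the same order. Windows were also listed for Wnt7a, Fzd1 and Axin2, so that 4 of the 10 genes had an entry, and those of the other 3 genes held 0 matches.

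In NSC-like cells the 4 ligands stood higher in every cKO library than in every Control library, and the Frizzled receptors Fzd1 and Fzd2 and the feedback gene Axin2 stood lower in every cKO library. Fzd3, Sfrp1 and Dkk3 overlapped between the groups. All 10 genes passed the filter on low counts in these cells, Wnt5b only through the cKO and DKO libraries. That 7 of 10 genes (70.0%) did not overlap follows in part from how they were chosen, and no support is drawn from it: among 14496 genes tested in NSC-like cells, 6.88% stood above and 10.4% below in every cKO library, and edgeR's quasi-likelihood test called 0.145% at an adjusted p under 0.05.

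Wnt5b, a ligand of the branches that act without beta-catenin, stood at 0.86, 1.07 and 0.46 CPM in NSC-like cells of Control libraries 1 to 3. The cKO libraries 1 to 3 held 5.71, 13.5 and 10.6 CPM, and the DKO library held 4.84 CPM. The lowest cKO library was thus above the highest Control library, with cKO library 1 the lowest of its group. The fitted difference on the log2 scale was 3.79 (SE 0.46) for cKO minus Control, on 16 Control UMIs and 157 cKO UMIs. Within the libraries processed with Cell Ranger 6.0.1 the difference of mean log2(CPM + 1) was 2.33 (2 against 2 libraries), and within those of version 6.1.1 it was 2.99 (1 against 1). The size depended on the clustering: when cells were clustered without integration of the libraries, the fitted difference was 1.41.

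Wnt5a, the close paralog of Wnt5b, stood at 4.59, 1.72 and 6.05 CPM in the Control libraries, at 10.9, 30.5 and 23.7 CPM in the cKO libraries and at 9.57 CPM in the DKO library. Again cKO library 1 was the lowest of its group and lay above all Control libraries. The fitted difference was 2.37 (SE 0.50), and it was 0.63 when cells were clustered without integration. Wnt7a and Wnt7b, ligands of the beta-catenin branch with a known part in brain vessel growth, were less far apart. Wnt7a stood at 15.8, 17.2 and 12.9 CPM against 18.3, 18.8 and 23.3 CPM, and at 11.9 CPM in the DKO library, with a fitted difference of 0.52 (SE 0.19). Wnt7b stood at 37.9, 42.1 and 34.0 CPM against 43.0, 48.2 and 63.3 CPM, and at 31.5 CPM in the DKO library, with a fitted difference of 0.55 (SE 0.19), or 0.15 without integration. For both genes the gap between the highest Control and the lowest cKO library was small, and the DKO library lay below all 6 other libraries.

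**Figure D1:**
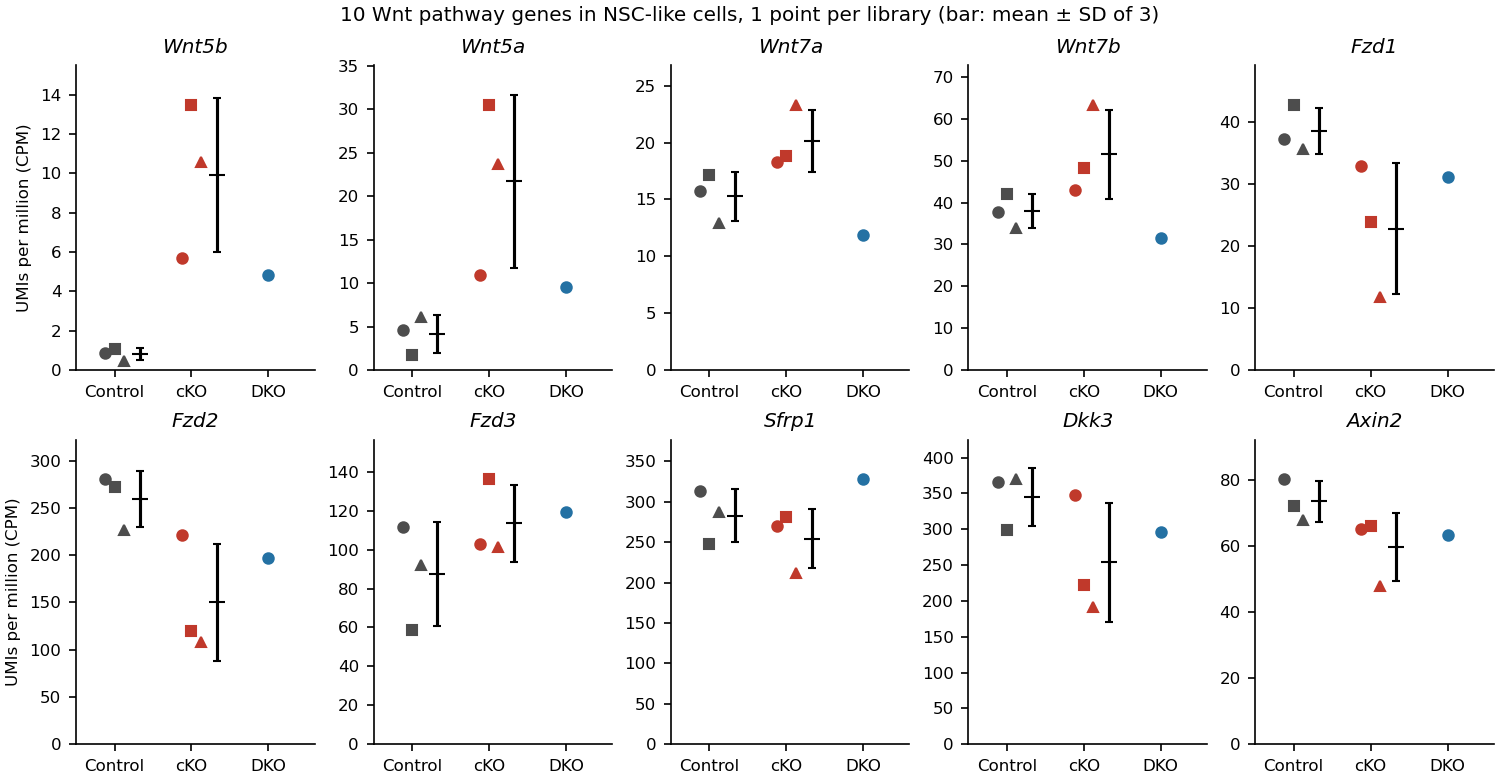
Level of the 10 genes in NSC-like cells, in CPM on linear axes that start at 0, with 1 point per library (circle, square and triangle for replicates 1, 2 and 3) and the mean ± SD of 3 libraries beside the Control and cKO points. Wnt5b stands at 0.46 to 1.07 CPM in the Control libraries and at 5.71 to 13.5 CPM in the cKO libraries, while Fzd2 stands at 226.1 to 280.3 CPM and at 108.3 to 221.2 CPM.

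Among the receptors, Fzd2 stood at 280.3, 271.7 and 226.1 CPM in the Control libraries, at 221.2, 120.2 and 108.3 CPM in the cKO libraries and at 196.8 CPM in the DKO library. Here cKO libraries 2 and 3 were far below the Controls, while cKO library 1 lay just under the lowest Control library. The fitted difference was -0.70 (SE 0.24), and -0.15 without integration. Fzd1 stood at 37.3, 42.7 and 35.6 CPM, at 32.9, 23.8 and 11.7 CPM and at 31.1 CPM in the same order, with a fitted difference of -0.69 (SE 0.30) and the same order of cKO libraries. Fzd3, a receptor best known from planar cell polarity and axon guidance, stood at 111.8, 58.8 and 92.2 CPM in the Control libraries, at 103.0, 136.2 and 101.4 CPM in the cKO libraries and at 119.4 CPM in the DKO library. Its groups overlapped, and the fitted difference was 0.46 (SE 0.22).

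Sfrp1, a secreted protein that binds Wnts and Frizzled receptors, stood at 313.3, 247.7 and 287.0 CPM against 270.4, 280.6 and 212.3 CPM, with 327.9 CPM in the DKO library and a fitted difference of -0.06 (SE 0.17). The groups overlapped, with cKO library 3 the lowest of all. Dkk3, a divergent member of the Dickkopf family of secreted proteins, stood at 366.5, 298.7 and 369.8 CPM against 347.9, 221.7 and 191.5 CPM, with 296.8 CPM in the DKO library and a fitted difference of -0.36 (SE 0.22). Only cKO library 1 reached the Control range. Axin2, a scaffold of the complex that degrades beta-catenin and a common readout of beta-catenin signalling, stood at 80.3, 72.3 and 68.1 CPM against 65.3, 66.0 and 48.0 CPM, with 63.3 CPM in the DKO library. Its fitted difference was -0.21 (SE 0.15), and the groups were separated by a narrow gap. With cells clustered without integration, where the NSC-like cluster held 17 and 18 cells of cKO libraries 2 and 3, the differences of Wnt7a (-0.04), Fzd1 (0.03), Dkk3 (0.02) and Axin2 (0.16) lay on the other side of 0. Leaving out cKO library 3 gave differences of -0.37 for Fzd1, -0.23 for Dkk3, -0.11 for Axin2, 0.34 for Wnt7a and 0.32 for Wnt7b. Without cKO library 1 the differences were -1.10 for Fzd1, -0.63 for Dkk3 and -1.07 for Fzd2. Fzd3 differed by 0.24 without Control library 2, and Sfrp1 by 0.01 without cKO library 3 against -0.15 without Control library 2.

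The share of NSC-like cells with at least 1 Wnt5b UMI was 0.526% (6 of 1141), 1.12% (5 of 446) and 0.38% (5 of 1315) in the Control libraries. In the cKO libraries it was 3.43% (31 of 904), 13.6% (29 of 214) and 10.8% (73 of 677), and in the DKO library 4.25% (37 of 871). The shares followed the CPM, and the lowest cKO share lay above the highest Control share. No Control cell held more than 1 Wnt5b UMI, whereas 3, 7 and 10 cells of cKO libraries 1 to 3 and 7 cells of the DKO library held 2 or more. With each cell thinned to 2000 UMIs, the shares were 0.0941%, 0.227% and 0% in the Control libraries, 0.448%, 4.25% and 2.23% in the cKO libraries and 0.576% in the DKO library. Microglia-like cells, taken as cells without the gene, gave 0 UMIs in all 3 Control libraries, in cKO libraries 1 and 2 and in the DKO library, where 3 UMIs would have been 2.29 to 9.60 CPM, and 3 of 173 cells (1.73%) in cKO library 3. The median depth per library was 3718 to 6243 UMIs in microglia-like cells and 5268 to 11420 UMIs in NSC-like cells. Intervals and limits of this kind cover counting error only. NSC-like cells held 16 of 542 Wnt5b UMIs (2.95%) in all kept Control cells, 157 of 546 (28.8%) in cKO cells and 46 of 218 (21.1%) in DKO cells, while mural-like cells held 25.3%, 18.9% and 18.4%.

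Lists of cell type markers moved with these values in NSC-like cells. The summed level of the 10 astrocyte markers was 1880 to 2084 CPM in the Control and 2129 to 2740 CPM in the cKO libraries, carried by Agt, at 16.8 to 34.6 CPM and 147.5 to 700.0 CPM, and by Aqp4. The TAP list stood at 38.4 to 57.4 and 12.8 to 33.2 CPM, the neuroblast list at 498.5 to 650.5 and 199.7 to 426.3 CPM, and the microglia, mural and fibroblast lists were also lower in every cKO library. The 7 mural markers, which mark the population with the highest Wnt5b level, summed to 114.7 to 144.7 CPM in the Control and 87.4 to 111.8 CPM in the cKO libraries. This list was mixed, as 3 of its genes were lower and 1 was higher in every cKO library. The part of these shifts in the differences of the 10 genes was not tested.

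Side by side with the cKO libraries, the single DKO library held the 4 ligands at lower levels in NSC-like cells. The fitted DKO minus cKO differences were -1.02 (SE 0.53) for Wnt5b, -1.17 (SE 0.68) for Wnt5a, -0.78 (SE 0.28) for Wnt7a and -0.73 (SE 0.27) for Wnt7b. Against the Controls, the DKO library stood at 2.77 (SE 0.57) for Wnt5b and 1.20 (SE 0.65) for Wnt5a. The DKO value of Wnt5b lay between the highest Control library and the lowest cKO library. Both contrasts share libraries with the cKO minus Control contrast, and their errors rest on the spread of the other groups. NSC-like cells with a Prm1 UMI were also fewer in the DKO library (40.1%) and cKO library 1 (26.7%) than in cKO libraries 2 and 3 (71.5% and 76.1%). The part of these shares in the DKO differences was not tested.

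Prm1 varied among NSC-like cells of the libraries with Cre, and cells with a Prm1 UMI made up 26.7%, 71.5% and 76.1% of the NSC-like cells in cKO libraries 1 to 3 and 40.1% in the DKO library. Wnt5b stood at 12.4 CPM in cells with and 1.85 CPM in cells without a Prm1 UMI in cKO library 1, at 14.8 and 7.72 CPM in cKO library 2, at 11.7 and 4.68 CPM in cKO library 3 and at 8.89 and 1.20 CPM in the DKO library. In cells with a Prm1 UMI the Wnt5b levels of the 3 cKO libraries were thus close to each other, on 27, 34 and 79 UMIs. The 4 to 7 Wnt5b UMIs in the cells without a Prm1 UMI make the levels there coarse. Wnt5a stood at 16.1 and 7.92, at 32.2 and 23.1, at 26.7 and 7.80, and at 14.9 and 4.79 CPM in the same order. Its cKO libraries were further apart in cells with a Prm1 UMI, as were those of Fzd2 (181.4, 114.7 and 99.9 CPM). Those of Wnt7a were close (19.8, 20.0 and 21.5 CPM). Fzd1, Fzd2, Dkk3 and Axin2 were lower in the cells with a Prm1 UMI in 4 of 4 libraries, Wnt7a and Fzd3 were higher in 3 of 4, Wnt7b in 2 of 4 and Sfrp1 in 1 of 4. Cells with a Prm1 UMI were also deeper, with means of 9013 and 5711 UMIs per cell in cKO library 1, 15040 and 8500 in cKO library 2, 13080 and 7916 in cKO library 3, and 12890 and 9592 in the DKO library, and the part of depth was not tested. Cells of 1 library are not replicates, so the split is a description.

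**Figure D2:**
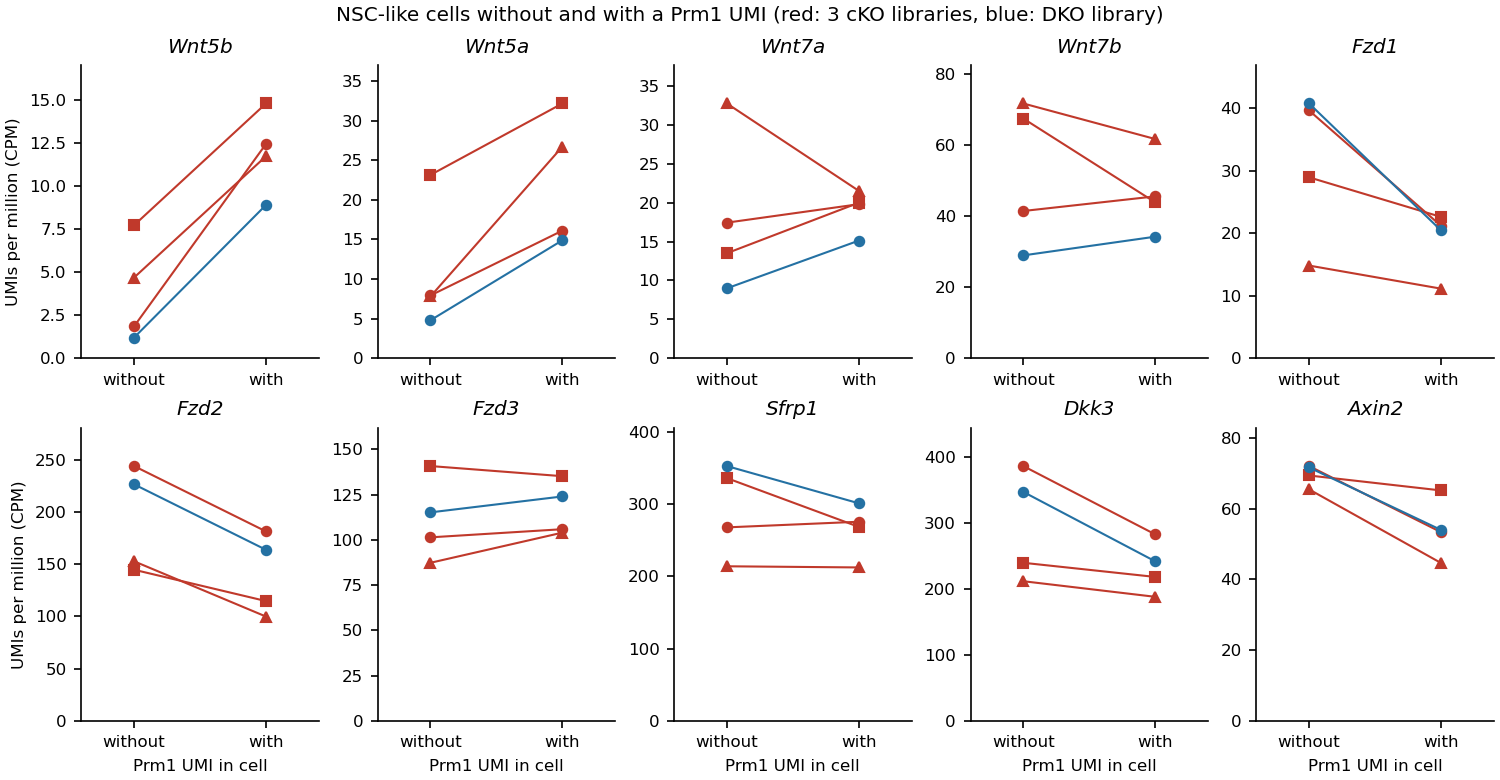
Level of the 10 genes in NSC-like cells without and with a Prm1 UMI, in CPM on linear axes that start at 0, with a line for each of the 3 cKO libraries (red, circle, square and triangle for replicates 1, 2 and 3) and the DKO library (blue). Wnt5b stands at 1.20 to 7.72 CPM without and at 8.89 to 14.8 CPM with a Prm1 UMI, and the lines of Fzd1, Fzd2, Dkk3 and Axin2 slope down in all 4 libraries.

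Across the 12 populations the ligands had different main sources in the Control libraries. Wnt5b was highest in mural-like cells (54.1 ± 10.8 CPM, SD, n = 3), followed by endothelial-like cells (10.8 ± 2.88) and cluster 8 (3.71 ± 0.81), each apart from the next. Oligodendrocyte-like (2.09 ± 0.65), TAP-like (2.02 ± 0.73), ependymal-like (1.86 ± 1.12) and NSC-like cells (0.80 ± 0.31) came next, and these overlapped with their neighbours in the order, as did neuroblast-, OPC-, neuron- and astrocyte-like cells at 0.61 to 0.14 CPM. In the cKO libraries NSC-like cells, at 9.93 ± 3.93 CPM, were close to the Control level of endothelial-like cells. Wnt5a had another order, with neuroblast-like cells first (54.8 ± 9.52 CPM), then endothelial-like (37.4 ± 5.88), ependymal-like (21.6 ± 5.04) and TAP-like cells (18.1 ± 3.72), of which the last 2 overlapped. NSC-like cells, at 4.12 ± 2.20 CPM, overlapped with astrocyte-like cells (4.56 ± 1.79) and neuron-like cells (2.97 ± 1.34). Wnt7a and Wnt7b were both highest in astrocyte-like cells, at 43.8 ± 9.47 and 69.2 ± 6.13 CPM, apart from the next population. For Wnt7b, NSC-like cells came second at 38.0 ± 4.04 CPM, apart from the OPC-like cells below. For Wnt7a, neuroblast-like cells came second at 17.0 ± 2.71 CPM, and NSC-like cells held rank 3 at 15.3 ± 2.17 CPM, overlapping with neuroblast- and OPC-like cells.

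**Figure D3:**
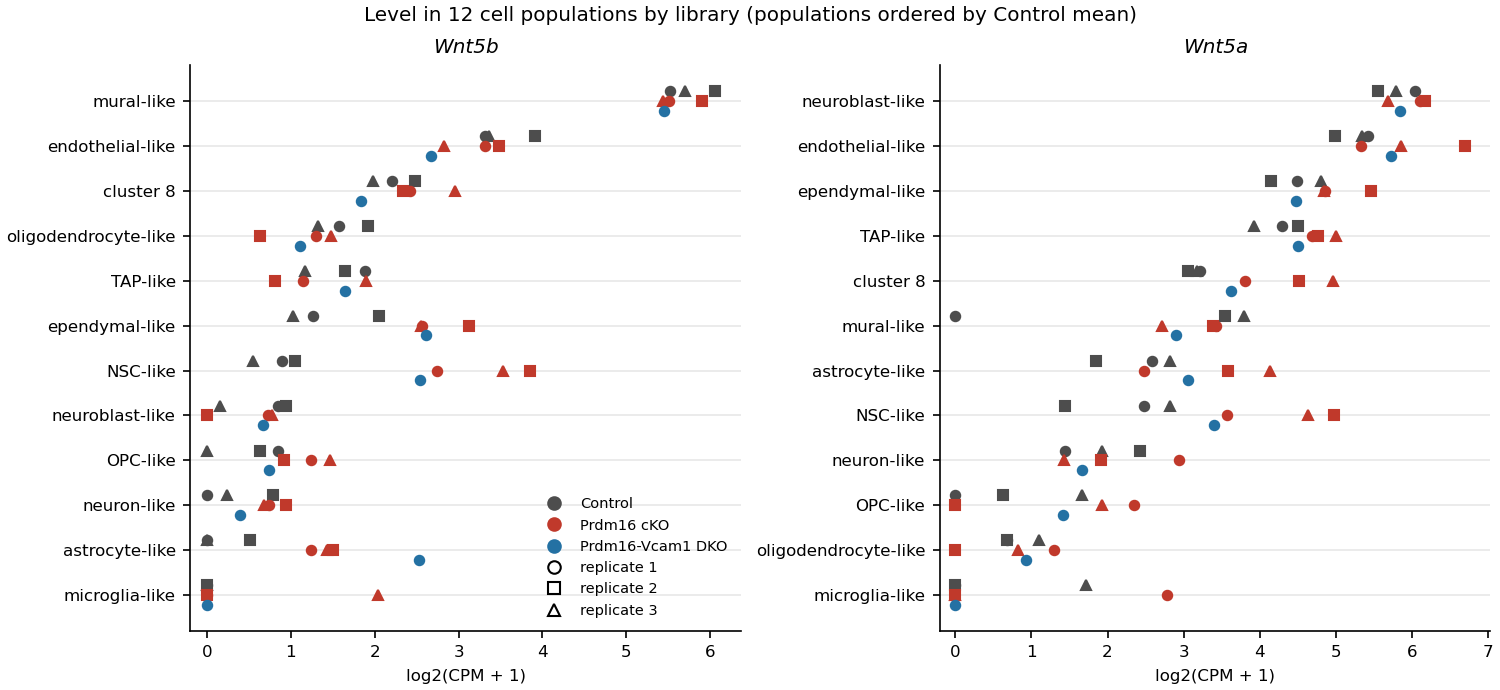
Level of Wnt5b (left) and Wnt5a (right) in each of the 12 populations as log2(CPM + 1), with 1 point per library (grey Control, red cKO, blue DKO; circle, square and triangle for replicates 1, 2 and 3) and populations ordered by their Control mean. Wnt5b is highest in mural-like cells in every library, and its red points lie to the right of the grey ones in NSC-, ependymal-, astrocyte- and OPC-like cells. In OPC-like cells these points rest on 2, 1 and 0 UMIs in the Control and 3, 1 and 5 UMIs in the cKO libraries.

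Among the receptors and inhibitors, Fzd1 was highest in NSC-like cells (38.5 ± 3.70 CPM), apart from astrocyte-like cells (23.1 ± 4.22) and TAP-like cells (20.8 ± 4.91), which overlapped. Fzd2 was highest in astrocyte-like cells (429.0 ± 65.7 CPM), then in NSC-like cells (259.4 ± 29.1), far above TAP-like cells (61.9 ± 4.28). Fzd3 was led by ependymal-like cells (284.6 ± 54.0 CPM), neuron-like cells (180.5 ± 69.7) and neuroblast-like cells (175.1 ± 33.7), and NSC-like cells held rank 7. The neuron-like range, 108.8 to 248.0 CPM, overlapped with both of the others, while the ependymal-like range of 234.0 to 341.5 CPM lay above the neuroblast-like range of 138.1 to 204.0 CPM. Sfrp1 was highest in NSC-like cells (282.7 ± 33.0 CPM), followed at a distance by ependymal-like cells (89.0 ± 5.30). Dkk3 was highest in NSC-like (345.0 ± 40.1 CPM) and astrocyte-like cells (300.6 ± 20.3), which overlapped, with ependymal-like cells next (67.1 ± 6.27). Axin2 was highest in the vascular populations, at 127.1 ± 17.3 CPM in mural-like and 106.1 ± 9.01 CPM in endothelial-like cells, followed by NSC-like cells (73.6 ± 6.21). The populations are clusters of the same cells, so these orders are descriptions.

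Outside NSC-like cells, 93 pairs of gene and population passed the filter on low counts, out of 10 genes in 11 populations. The quasi-likelihood test of edgeR called 0 of the 93 pairs at an adjusted p under 0.05, against a background of 0.138% of 137041 pairs of all genes. DESeq2 called 1, Wnt5a in cluster 8, and its share over all pairs is not given here. In NSC-like cells it called 561 genes where edgeR called 21. At an unadjusted p under 0.05 in edgeR there were 18 pairs (19.4%), against 5.29% of all pairs. In 9 pairs every cKO library stood above and in 4 below every Control library (14.0% together), against 10.5% of all pairs. The largest share, picked afterwards from the 11 populations, was in ependymal-like cells, with 6 of 10 genes above, where the background was 5.57%, and 0 below. The genes were chosen in NSC-like cells of the same libraries, and each counts in several populations, so no support is drawn from these shares. In 4 of the 93 pairs 0 Control libraries, and in 3 pairs 0 cKO libraries, reached the limit of the filter.

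In ependymal-like cells, the ciliated cells that line the ventricle, Wnt5b stood at 1.39, 3.13 and 1.04 CPM in the Control libraries, at 4.91, 7.72 and 4.88 CPM in the cKO libraries and at 5.10 CPM in the DKO library. These values rest on 5, 3 and 8 UMIs in the Control and 17, 13 and 20 UMIs in the cKO libraries. Every cKO library and the DKO library lay above the Controls, and the fitted difference of 2.01 (SE 0.51) did not pass the test (edgeR adjusted p = 0.183). The call depended on the setting, and without the filter on low counts the edgeR adjusted p was 0.0178. No other alternative called Wnt5b in ependymal-like cells. Sfrp1 stood at 86.3, 95.1 and 85.5 CPM against 116.3, 156.8 and 142.3 CPM, with 111.8 CPM in the DKO library. Its difference was 0.71 (SE 0.16), with the lowest adjusted p among the 93 pairs in edgeR (0.135). This adjusted p was 0.00389 without the filter, 0.0167 with a replicate block and 0.0122 without cKO library 1. No other alternative called Sfrp1 in ependymal-like cells. In these settings edgeR also called 521, 667 and 1644 genes in NSC-like cells, in place of 21, so nothing is read from these calls. Dkk3 stood at 64.6, 74.2 and 62.4 CPM against 88.0, 87.3 and 91.1 CPM, with the DKO library at 67.9 CPM within the Control range (difference of cKO minus Control 0.49, SE 0.14, edgeR adjusted p = 0.247). Wnt5a, at 21.4, 16.7 and 26.8 CPM against 28.0, 42.8 and 27.6 CPM, and Wnt7b, at 10.0, 10.5 and 8.58 CPM against 10.7, 11.3 and 13.9 CPM, were separated by narrow gaps, with edgeR adjusted p-values of 0.57 and 0.746. Axin2 stood at 23.9, 26.1 and 19.2 CPM against 27.4, 31.5 and 27.1 CPM, with 29.8 CPM in the DKO library (difference 0.41, SE 0.17, edgeR adjusted p = 0.531). The mural marker list moved with these values: its 7 genes summed to 396.3 to 605.6 CPM in Control and 731.5 to 916.1 CPM in cKO ependymal-like cells, carried by Acta2 and Tagln, against 25570 to 36810 CPM in mural-like cells. The fibroblast list was lower in every cKO library, at 38.4 to 42.5 against 16.4 to 32.3 CPM. The part of both lists in the ependymal differences was not tested.

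In astrocyte-like cells Wnt5b had 26 UMIs in all. The Control libraries stood at 0, 0.43 and 0 CPM, the cKO libraries at 1.37, 1.83 and 1.69 CPM and the DKO library at 4.77 CPM. With 1 Control and 10 cKO UMIs the ratio was 14.1, with an exact 95% interval of 2.01 to 612 for counting error, and the edgeR adjusted p was 0.296. The gene passed the filter on low counts there only through the DKO library. The call depended on how cells were assigned: edgeR called the gene by marker lists (difference 3.37) and without integration (4.22). Without integration the astrocyte-like cluster held 449 and 1830 cells of cKO libraries 2 and 3, in place of 90 and 291. The NSC-like cluster then held 17 and 18 of their cells, in place of 214 and 677. By marker lists the astrocyte-like cells were 219 and 567 and the NSC-like cells 101 and 286. Cells of the NSC-like population, on which the genes were chosen, may thus be among the astrocyte-like cells there. No support is drawn from these calls.

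Marker lists of other cell types moved in astrocyte-like cells as well. The astrocyte list itself summed to 5814 to 6350 CPM in the Control and 6749 to 6920 CPM in the cKO libraries, and the endothelial list to 10.46 to 28.44 and 30.97 to 58.67 CPM. Lower in every cKO library were the TAP list (23.09 to 33.68 against 10.97 to 15.03 CPM), the neuroblast list (112.1 to 148.3 against 59.4 to 88.3), the OPC list (33.3 to 49.4 against 13.7 to 28.2) and the fibroblast list (26.7 to 38.9 against 6.41 to 18.7). Their part in the differences of Wnt5b and of other Wnt genes in astrocyte-like cells was not tested.

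In mural- and endothelial-like cells, where Wnt5b was highest, the differences were -0.12 and -0.28 with an adjusted p of 1 for both in edgeR. Over the 7 populations other than NSC-like cells in which Wnt5b could be fitted, 3 differences were above and 4 below 0.

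Wnt5a differences were above 0 in all 9 other populations fitted, from 0.04 to 1.51 in edgeR and from 0.05 to 1.53 with DESeq2's size factors. Of them, 5 had an unadjusted p under 0.05 in edgeR, against 5.29% of all pairs of gene and population. The populations come from the same libraries, so they are not 9 separate observations and the signs are a description. In OPC-like cells Wnt5a passed the filter on low counts through 1 cKO library only. In cluster 8 it stood at 8.31, 7.30 and 8.01 CPM against 13.0, 21.9 and 30.0 CPM, with 11.3 CPM in the DKO library. Both the cKO and the DKO libraries lay above the tight Control range, and the difference of 1.51 (SE 0.30) had an edgeR adjusted p of 0.279. The call depended on the test, and with DESeq2 the adjusted p was 0.0102. In TAP-like cells Wnt5a stood at 18.5, 21.6 and 14.2 CPM against 24.7, 26.1 and 31.1 CPM, with 21.7 CPM in the DKO library (difference 0.67, SE 0.19, edgeR adjusted p = 0.477). In endothelial-like cells it stood at 41.9, 30.8 and 39.5 CPM against 39.0, 102.4 and 56.6 CPM, where cKO library 1 lay within the Control range. The sum of the 5 NSC markers moved with Wnt5a. It was 360.8 to 695.8 CPM in Control and 761.3 to 1129 CPM in cKO libraries in cluster 8. In TAP-like cells it was 357.7 to 444.7 and 526.0 to 900.9 CPM. Only 1 of the 5 markers was higher in every cKO library in cluster 8. In TAP-like cells 1 was higher and 1 lower in every cKO library, so the list was mixed. In TAP-like cells the neuroblast list (4472 to 5057 against 3273 to 4361 CPM) and the endothelial list (28.8 to 46.8 against 15.3 to 24.5 CPM) were lower in every cKO library. The part of these shifts was not tested.

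Fzd2 differences were below 0 in all 11 other populations, from -1.05 to -0.17 in edgeR and from -1.08 to -0.21 with DESeq2's size factors, with a lowest edgeR adjusted p of 0.478. These signs, too, come from the same libraries and are a description. In microglia-like cells Fzd2 passed the filter on low counts through 1 Control library only. In cKO library 2 it held 0 UMIs in endothelial- and microglia-like, 1 in neuron-like and 2 in OPC-like cells. In neuroblast-like cells Fzd2 stood at 57.0, 59.5 and 49.0 CPM against 47.1, 34.1 and 31.7 CPM, with 41.7 CPM in the DKO library. The cKO libraries lay below the Controls there, as they did in cluster 8 (44.5 to 54.3 against 30.3 to 41.2 CPM) and in OPC-like cells (9.23 to 13.6 against 1.78 to 7.72 CPM). Marker lists were lower in every cKO library as well, the TAP list in neuroblast-like cells (63.4 to 84.7 against 27.4 to 54.2 CPM), and the neuron list (428.9 to 468.7 against 160.5 to 376.4 CPM) and microglia list (34.9 to 45.2 against 18.7 to 28.5 CPM) in OPC-like cells, and their part was not tested. Fzd1 differences were above 0 in 4 and below 0 in 4 of the 8 populations fitted, and those of Fzd3 were above 0 in 8 of 11. Sfrp1 was above 0 in 7 of 10, Dkk3 below 0 in 8 of 11, and Axin2 above 0 in 7 of 10, none of which passed the test in any population (lowest edgeR adjusted p-values of 0.135, 0.247 and 0.531). In mural-like cells Sfrp1 passed the filter on low counts through 1 cKO library only. Wnt7a (5 of 8 with DESeq2's size factors) and Wnt7b were each above 0 in 6 of 8 populations, with lowest edgeR adjusted p-values of 0.779 and 0.677. Wnt7b passed the filter through 1 cKO library only in neuron-like cells and through 1 Control library only in neuroblast-like cells. Pairs that entered through 1 group alone were tested because a library was high there, so nothing is read from their signs.

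**Figure D4:**
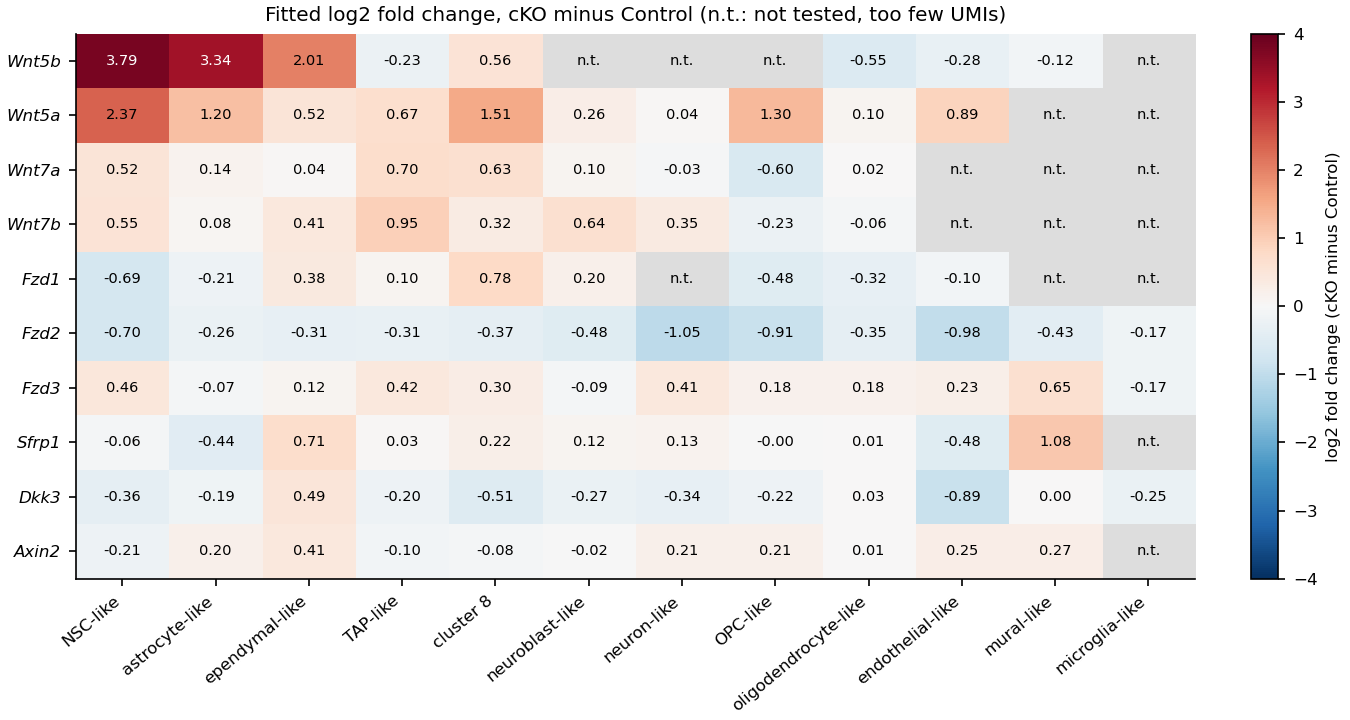
Fitted log2 difference, cKO minus Control, of each of the 10 genes (rows) in each of the 12 populations (columns), with red above and blue below 0 and grey where the gene had too few UMIs to be tested. Wnt5b reaches 3.79 in NSC-like, 3.34 in astrocyte-like and 2.01 in ependymal-like cells and lies between -0.55 and 0.56 in the other populations tested, and the row of Fzd2 is below 0 in every column. In microglia-like cells Fzd2 passed the filter on low counts through 1 Control library only.

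The other genes of the pathway were 93 ligands, receptors, inhibitors, relay and target genes, which gave 677 tested pairs of gene and population. Of these, 4 passed the test as higher and 2 as lower in the cKO libraries (background 0.139% of all pairs). All 4 higher pairs passed the filter on low counts only through cKO and DKO libraries, and Sp5, one of the lower pairs, only through Control and DKO libraries, so nothing is read from their number against the background. All 6 edgeR calls were in NSC-like or astrocyte-like cells. DESeq2 made 14 calls, which included these 6, Tnfrsf19 as lower in astrocyte-like cells (-0.92, adjusted p = 0.0394) and 4 in other populations: Sfrp2 in neuroblast-like cells (2.41, adjusted p = 2.11e-07), Draxin (1.02, adjusted p = 0.00175) and Myc (1.76, adjusted p = 0.0297) in TAP-like cells and Wls in ependymal-like cells (0.88, adjusted p = 0.0118). The background above is that of edgeR. DESeq2 called 561 genes in NSC-like cells where edgeR called 21, so nothing is read from the number of its calls. The list's median difference was -0.03 in NSC-like cells, where the median of all genes was -0.01, and -0.12 in astrocyte-like cells, where that of all genes was -0.003.

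In NSC-like cells edgeR called 1 of 8 secreted inhibitors tested (Frzb) and 1 of 5 genes of the R-spondin axis (Rspo1) as higher, against 0.145% of all genes called. As 0 Control libraries carried either gene past the filter, both were tested because they were high in cKO and DKO libraries. Nothing is read from their shares against that background. None of the 2 ligands, 2 secretion genes, 12 receptors, 13 relay genes, 10 nuclear factors, 11 beta-catenin target genes and 10 planar cell polarity genes tested was called by edgeR, while an unadjusted p under 0.05 was found for 1, 1, 2, 1, 2, 3 and 2 of them in this order. Over the whole list that p was found for 15 of 68 genes tested in NSC-like cells, against 13.7% of all 14496 genes. In NSC-like cells DESeq2 called Daam2, Nkd2 and Wls in addition, all higher, among 561 genes it called there.

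Frzb, a secreted Frizzled-related inhibitor, stood in astrocyte-like cells at 0.84, 0.43 and 0 CPM in the Control libraries, at 21.0, 63.1 and 68.4 CPM in the cKO libraries and at 24.8 CPM in the DKO library. These were 3 Control and 318 cKO UMIs, a ratio of 149 with an exact 95% interval of 50.7 to 729 (edgeR adjusted p = 0.0103). In NSC-like cells Frzb stood at 0.14, 0 and 0 CPM against 1.68, 9.93 and 6.36 CPM, with 2.31 CPM in the DKO library. There 1 Control and 89 cKO UMIs gave a ratio of 119, from 20.9 to 4770 (edgeR adjusted p = 0.0403). Nkd2, which binds Dishevelled and dampens Wnt signals, stood in astrocyte-like cells at 0, 0 and 0.24 CPM against 2.73, 23.8 and 9.78 CPM, with 7.63 CPM in the DKO library, a ratio of 86.0 on 1 and 61 UMIs, from 14.9 to 3450 (edgeR adjusted p = 0.0154). In NSC-like cells its edgeR adjusted p was 0.0633, and in ependymal-like cells its difference had the other sign (-1.07, edgeR adjusted p = 0.134). Rspo1, a secreted enhancer of Wnt signals that acts through Lgr receptors, stood in NSC-like cells at 0.72, 0.64 and 0.82 CPM against 3.19, 9.58 and 9.23 CPM, with 1.68 CPM in the DKO library (difference 3.34, SE 0.52, edgeR adjusted p = 0.0396). Frzb, Nkd2 and Rspo1 passed the filter on low counts in these populations only through cKO and DKO libraries, with 0 Control libraries reaching its limit of 1.43 CPM in NSC-like and 4.18 CPM in astrocyte-like cells, so each was tested because it was high there.

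The lower genes were both in astrocyte-like cells. Sp5, a transcription factor gene that beta-catenin is known to switch on, stood at 7.11, 7.77 and 8.26 CPM in the Control libraries, at 1.37, 0.91 and 0.34 CPM in the cKO libraries and at 5.09 CPM in the DKO library (difference -3.17, SE 0.57, edgeR adjusted p = 0.00793). Fzd5, a receptor of the beta-catenin branch, stood at 18.0, 22.0 and 16.0 CPM against 8.65, 3.66 and 2.36 CPM, with 15.9 CPM in the DKO library (difference -1.90, SE 0.37, edgeR adjusted p = 0.0155). In both cases the DKO library lay between the groups. Sp5 passed the filter on low counts in astrocyte-like cells only through Control and DKO libraries, so it was tested because it was high there. In NSC-like cells Sp5 stood at 24.5, 39.7 and 22.0 CPM against 26.5, 3.90 and 3.24 CPM. There cKO library 1 lay within the Control range (edgeR adjusted p = 0.606). The 6 calls were not stable when single libraries were left out or cells were assigned in another way. Without Control library 1, 2 or 3, the edgeR adjusted p of both Frzb and Rspo1 in NSC-like cells was 0.234, 0.305 and 0.249, and without cKO library 2 or 3 it was 0.175 and 0.0878 for Frzb and 0.194 and 0.116 for Rspo1. In astrocyte-like cells the edgeR adjusted p without Control library 1, 2 or 3 was 0.0731, 0.14 and 0.0853 for Frzb and 0.0883, 0.166 and 0.194 for Nkd2. For Fzd5 it was 0.123 and 0.0567 without Control library 2 or 3 and 0.114 and 0.11 without cKO library 2 or 3, and for Sp5 0.0553 and 0.0567 without Control library 2 or 3 and 0.0733 without cKO library 3. No direction changed, and without cKO library 1 all 6 were called, among 52 pairs. With single libraries left out, the fitted differences ran from 5.92 to 8.34 for Frzb and from 3.04 to 3.73 for Rspo1 in NSC-like cells. In astrocyte-like cells they ran from 6.24 to 7.92 for Frzb, from 5.41 to 7.67 for Nkd2, from -3.83 to -2.64 for Sp5 and from -2.72 (without cKO library 1) to -1.44 (without cKO library 3) for Fzd5.

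Other alternatives moved the same genes further. Without integration edgeR called neither Rspo1 in NSC-like cells (0.62, adjusted p = 1) nor Nkd2 (2.38, adjusted p = 0.0912) and Sp5 (-1.64, adjusted p = 0.133) in astrocyte-like cells, and Frzb did not pass the filter in NSC-like cells. With cells assigned by marker lists, the edgeR adjusted p was 0.245 for both Frzb and Rspo1 in NSC-like cells, 0.335 for Fzd5 (-1.67) and 0.304 for Sp5 (-1.95). At 5% mitochondrial counts it was 0.106 for Frzb and 0.188 for Rspo1 in NSC-like cells and 0.127 for Sp5. Without the DKO library it was 0.0563 for Frzb and 0.0552 for Rspo1 in NSC-like cells, and Nkd2 did not pass the filter in astrocyte-like cells. At resolution 0.3 it was 0.0547 for Frzb in NSC-like cells and 0.0591 for Nkd2, and with the Cell Ranger version as a block it was 0.0527 for Frzb in NSC-like cells.

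**Figure D5:**
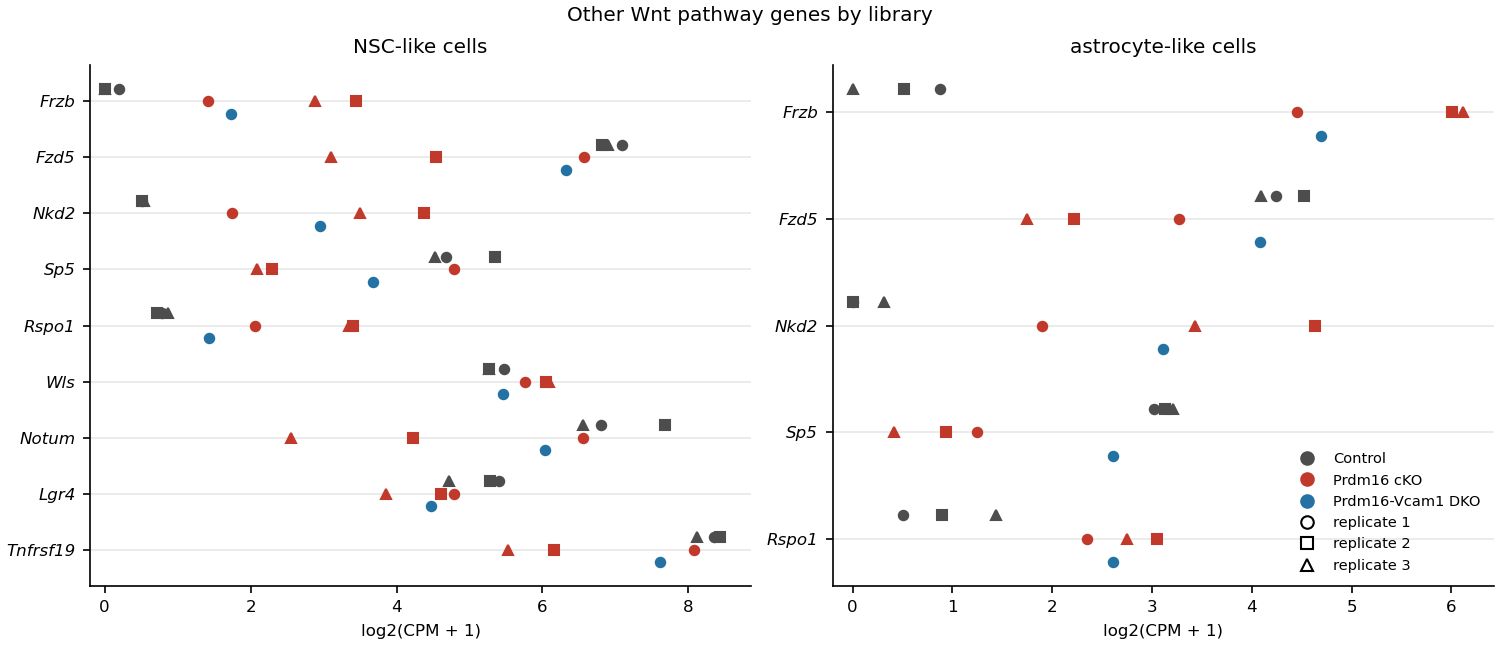
Level of other Wnt pathway genes as log2(CPM + 1) in NSC-like (left) and astrocyte-like cells (right), with 1 point per library (grey Control, red cKO, blue DKO; circle, square and triangle for replicates 1, 2 and 3). Frzb and Nkd2 lie to the right in the cKO libraries of both populations, and for Fzd5, Notum and Tnfrsf19 in NSC-like cells cKO library 1 lies next to the Controls and cKO libraries 2 and 3 far to the left.

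Several abundant genes of the pathway in NSC-like cells split the cKO libraries. Fzd5 stood at 135.8, 111.8 and 117.9 CPM in the Control libraries and at 94.2, 22.4 and 7.61 CPM in the cKO libraries. Notum, a secreted enzyme that removes the lipid from Wnts, stood at 110.4, 203.7 and 93.3 CPM against 93.5, 17.7 and 4.86 CPM, and Tnfrsf19, a receptor gene known as a beta-catenin target, at 326.9, 346.2 and 277.0 CPM against 269.4, 70.2 and 45.1 CPM. The cKO library 1 was near the Controls in each case and cKO libraries 2 and 3 were several-fold lower, and with this spread the edgeR adjusted p-values were 0.572, 0.59 and 0.504. Without cKO library 1, edgeR called Fzd5 (-3.07, adjusted p = 0.000678) and Tnfrsf19 (-2.36, adjusted p = 1.8e-06), and Notum was not called. The library left out was the one near the Controls for these genes. In that setting edgeR called 1644 genes in NSC-like cells in place of 21, so nothing is read from these calls. Wls, which carries Wnts to the cell surface, stood at 43.3, 37.6 and 37.7 CPM against 53.0, 64.9 and 67.0 CPM, with 42.8 CPM in the DKO library (difference 0.74, SE 0.16, edgeR adjusted p = 0.0659). The other secretion gene, Porcn, differed by 0.07 (edgeR adjusted p = 0.901). Of the further ligands, 2 of 15 could be tested, and the more abundant, Wnt4, stood at 5.45, 5.58 and 5.59 CPM against 4.20, 1.77 and 2.62 CPM (edgeR adjusted p = 0.344). Lgr4, a receptor for R-spondins, stood at 41.3, 37.8 and 25.3 CPM against 26.7, 23.4 and 13.5 CPM (edgeR adjusted p = 0.273), while Znrf3, a ligase that removes Frizzled receptors from the membrane, differed by -0.06 (edgeR adjusted p = 0.901). Gsk3b and Csnk1a1, kinases of the degradation complex, differed by -0.24 and 0.14, and the nuclear factors Tcf7l2 and Tle1 by -0.27 and -0.40, with edgeR adjusted p-values of 0.356 to 0.772. The receptor Ryk, the inhibitor Draxin, the cytoskeletal effector Daam1 and the ligand Wnt9a differed by -0.15 to 0.29, and Celsr1, an atypical cadherin of planar cell polarity, by -0.32 (edgeR adjusted p-values of 0.371 to 0.922).

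Genes most like each of the 10 were sought among 12439 genes by Pearson's correlation of the mean Control level, log2(CPM + 1), over the 12 populations. For Wnt5b they were Ecm2 (0.94), Tbxa2r (0.93) and Mgp (0.92), and for Wnt5a Scyl2, Syne2 and Tmtc4 (0.85 to 0.84). For Wnt7a they were Dclk1, Tmem161b and Ncan (0.96 to 0.95), and for Wnt7b Tlcd1, Ednrb and Mmd2 (0.96 to 0.93). Fzd1 was followed by Lhx2, Etfdh and Sp5 (0.93 to 0.90), Fzd2 by Rorb, Rcn2 and Ndrg2 (0.97 to 0.92) and Fzd3 by Pebp1, Pcmt1 and Lyrm2 (0.98 to 0.95). Sfrp1 was followed by Ctf1, 2810459M11Rik and Acot1 (0.92 to 0.91), Dkk3 by Gm20083, Prdm16os and Aldh1l1 (0.98 to 0.97) and Axin2 by Jag1, Il17rd and Ctdsp2 (0.92 to 0.88). The 12 points come from the same 3 libraries and differ in depth, so the correlations are a description.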

How the data were processed

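The authors deposited raw counts: for each of 7 libraries prepared with 10x Genomics 3′ v3.1 chemistry, Cell Ranger counted each UMI once per gene and barcode called as a cell, with no normalization. The file headers name Cell Ranger 6.0.1 for replicates 1 and 2 of the Control and cKO groups and 6.1.1 for the remaining 3 libraries, and the submitters' processing notes name mm10. Of 32285 gene identifiers, 99.6% were found in GENCODE vM21 (GRCm38). Genes were followed by identifier.

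Cells were filtered as described above and integrated in Seurat 5.3.0 (R 4.3.3) with 2000 variable features, among which Sfrp1 was the only 1 of the 10 genes, 30 principal components and resolution 0.15, which gave 18 clusters. A cluster was named where at least 3 markers of a type were detected in a fraction of 0.1 or more of the cluster and exceeded the other cells by 1 or more in log2. Clusters whose leading genes went against the name, or whose cells were too shallow, were left unnamed or numbered by rules set after the clusters were seen. Together, 4 unnamed clusters held 5452 cells. Doublets were scored with Scrublet in scanpy 1.11.5 at an expected rate of 0.08, and its automatic threshold failed in Control library 1, where the median of the others was used.

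UMIs were summed per library and population with at least 10 cells. The sums were fitted with edgeR 4.0.16 (its expression filter, TMM, robust quasi-likelihood test) in 1 model of 3 groups and 7 libraries per population, with Benjamini-Hochberg adjustment over all genes of the population and a threshold of 0.05. CPM is the UMI count scaled by all UMIs of that population and library. The fits were tested on simulated data. Libraries with the same replicate number share no stated origin. All 3 pairs deviated together from their group means in oligodendrocyte-like (correlations of 0.528, 0.119 and 0.427) and endothelial-like cells (0.230, 0.113 and 0.442) only.

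The 10 genes, the pathway list and the markers were chosen with earlier results of these data known. Named besides the 10 genes were every gene of the pathway list called in edgeR, the 2 most abundant genes of each role group in Control NSC-like cells, the 3 genes most like each of the 10, with at least 20 CPM in a population, and Prdm16, Vcam1 and Prm1. Marker genes and genes called by DESeq2 alone were named after their values were seen. Results were recomputed in 16 alternatives: DESeq2 1.42.0, all genes with a UMI in place of the filter, a block for the replicate number or for the Cell Ranger version, no DKO library, each Control or cKO library left out, clustering at resolution 0.3 or without integration, cells assigned by marker lists, doublets removed, and a mitochondrial limit of 5%. Protein sequences were not used here.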

Additional observations from a re-analysis of the deposited data

Results flagged for a closer look

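Axin2 had opposite signs in 2 populations of the same libraries. In ependymal-like cells every cKO library stood above every Control library (fitted log2 difference 0.41), and in NSC-like cells every cKO library stood below every Control library (-0.21), a gap of 0.62. Of all genes tested, 5.57% stood above in every cKO library in ependymal-like cells and 10.4% stood below in NSC-like cells. The ependymal difference did not pass the test (edgeR adjusted p = 0.531). The NSC-like difference comes from the contrast on which the genes were chosen. The difference between the populations was not tested, and without integration the difference in NSC-like cells was 0.16. Within the libraries of Cell Ranger 6.0.1 the differences of mean log2(CPM + 1) were 0.22 in ependymal-like and -0.21 in NSC-like cells, and within those of version 6.1.1 they were 0.47 and -0.50.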

How the results depend on the processing

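The fitted difference of Wnt5b in NSC-like cells stayed above 0 under all 16 alternatives. It was 1.41 without integration, where the NSC-like cluster held only 17 and 18 cells in cKO libraries 2 and 3, 3.18 with cells assigned by marker lists, and 3.47 to 4.10 with single libraries left out. The 0 calls among the 10 genes outside NSC-like cells became 1 with DESeq2, 5 without the filter on low counts, 3 without integration, 1 with marker lists and 0 to 3 with single libraries left out (3 without cKO library 1: Wnt5a in astrocyte-like cells and cluster 8, and Sfrp1 in ependymal-like cells). The calls without integration and with marker lists were all in astrocyte-like cells. In these settings the astrocyte-like cells of cKO libraries 2 and 3 were more and their NSC-like cells fewer. The calls may thus reuse the values on which the genes were chosen, and no support is drawn from them. The 6 calls of the pathway list became 14 with DESeq2, 28 without the filter, 3 without the DKO library, 10 without integration and 0 to 52 with single libraries left out. Of the 6 calls, 2 were among the 10 without integration and 2 among the 5 with marker lists, so that most calls there were of other pairs. The 21 genes called in NSC-like cells became 561 with DESeq2, 521 without the filter, 44 with the Cell Ranger version as a block, 2 without the DKO library, 0 at 5% mitochondrial counts, 7 without integration, 0 with marker lists and 0 to 1644 with single libraries left out. The share of all pairs of gene and population called in each alternative is not given here. Nothing is therefore read from the counts of the 10 genes or of the pathway list in these alternatives. The cause of these changes was not tested.

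In the fit with a replicate block, edgeR called 2 pairs of the 10 genes outside NSC-like cells (Wnt5a in cluster 8, 1.47, adjusted p = 0.00407, and Sfrp1 in ependymal-like cells, 0.68, adjusted p = 0.0167), 24 pairs of the pathway list and 667 genes in NSC-like cells, and the difference of Wnt5b there was 3.75. The share of all pairs called with this block is not given here, so nothing is read from the numbers of calls. In oligodendrocyte- and endothelial-like cells, where all 3 pairs of same-numbered libraries deviated together, the block changed no call of the 10 genes or the pathway list. In NSC-like cells, where the calls went from 21 to 667, the correlations of pairs 1 to 3 were 0.256, -0.021 and 0.397. Depth limited the values of Wnt5b, with 16 UMIs in 1141, 446 and 1315 NSC-like cells of the Control libraries.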
